A study of Mus musculus with 6 samples.

Results

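The genes of the proteasome were compared between NOTCH1-driven mouse leukemias with and without Sh2b3, the gene of an adaptor that restrains cytokine signalling. Members were taken by symbol: every Psma, Psmb, Psmc, Psmd, Psme and Psmg gene named by a single symbol in the platform annotation, without the immunoproteasome genes Psmb8, Psmb9 and Psmb10. This gave 43 genes of 18194, on 92 of the 34958 probe sets with 1 symbol, and each gene was represented by its probe set with the highest mean. The choice used no measured difference. Psme2, whose probe set carries the symbols of a pair of genes, fell outside the rule.

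Each of the 6 arrays held RNA of a leukemia raised by the MigR1-ΔE-Notch1 retrovirus, which carries an activated NOTCH1 without its extracellular part. The 3 wild-type arrays came from C57BL6 donor marrow and the 3 knockout arrays from Sh2b3-/- donor marrow, both taken at 8 weeks of age. Lineage-negative marrow cells were infected, and 50000 Lin-Sca1+ cells were injected into irradiated C57BL6 recipients of both groups, so the virus, the irradiated host and its own Sh2b3 were common to both. The labels name them biological replicates, yet also describe an RNA isolation in triplicate, and tie no array to an animal; the p-values therefore rest on the spread among arrays, part of which may be technical.

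The proteasome breaks down proteins that carry a ubiquitin chain. Its barrel-shaped core is built from outer rings of alpha subunits (Psma genes), which form the gate, and inner rings of beta subunits (Psmb genes), among them the subunits that cut peptide bonds. A cap at the end of the barrel holds a ring of ATPases (Psmc genes), which unfold the substrate and thread it inward, and non-ATPase subunits (Psmd genes), which bind ubiquitin chains and remove them. Other activators (Psme genes) can take the place of the cap, and chaperones (Psmg genes and some Psmd genes) help to assemble the parts. Subunits are needed in fixed proportions, and their genes are known to be controlled together by the transcription factor NRF1 when proteasome activity falls. Inhibitors of the proteasome, such as bortezomib, are used against blood cancers.

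Signals are log2 values, so that 1 unit is a doubling. Group values are means ± SD with n = 3, and differences are knockout minus wild type. Levels of different genes were not set against each other, because probe sets differ in how strongly they bind.

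Sh2b3 itself read 4.25, 4.83 and 4.08 on wild-type arrays 1 to 3 and 2.29, 2.24 and 2.29 on knockout arrays 1 to 3, near the bottom of the scale in knockout (limma adjusted p = 0.157); its second probe set lay at the bottom in both groups and checks nothing. The first pair of wild-type arrays resembled each other most: the SD of the difference between wild-type arrays 1 and 2 over 6725 genes with a mean above 5 was 0.234, against 0.503 to 0.689 in the other 14 pairs. Over the proteasome genes the same SD was 0.184 for this pair and 0.178 to 0.32 for the others. Of the T lineage markers 11 were measured. Their mean signal lay between 9.78 and 10.45 on wild-type and between 9.55 and 10.17 on knockout arrays. Higher in knockout were 2 of them (18.2%, against 48.1% of all genes tested) and lower 9. Their median difference was -0.23, and 0 had a limma adjusted p under 0.05. Cd3d and Thy1 stood above 12 on all 6 arrays, while Cd4 reached at most 4.63. Cd8a and Cd8b1 were lowest on knockout array 3, at 9.88 and 8.8. The mean of 7 B lineage markers was 3.56 to 3.8 in wild type and 3.38 to 4.59 in knockout, that of 10 macrophage and granulocyte markers 5.73 to 6.34 and 6.07 to 6.45, that of 5 erythroid markers 6.13 to 6.24 and 5.73 to 6.68, and that of 5 natural killer and cytotoxic markers 3.95 to 4.04 and 4.18 to 4.67. Below 3 on all arrays were 2 of the 7 B lineage markers (Cd79a and Pax5), 2 of the 10 macrophage and granulocyte markers (Itgam and Elane), 1 of the 5 erythroid markers (Hba-a1) and 2 of the 5 natural killer and cytotoxic markers (Ncr1 and Prf1). Other markers of the same lists were read clearly: Cd79b stood at 6.78 and 7.34 and Ms4a1 at 7.01 and 7.06 on knockout arrays 1 and 2, against 4.86 to 5.85 and 5.17 to 6.21 in wild type. On knockout array 3 they read 4.74 and 5.01, below every wild-type array, so the groups overlapped for both genes. Csf1r lay between 7.14 and 9.20, Lyz2 between 7.71 and 8.50, and Slc4a1 of red cells and S100a8 of granulocytes above 10. Gzma, a cytotoxic granule protease, read 11.47, 11.30 and 12.47 in wild type and 12.96, 12.46 and 12.94 in knockout, a difference of 1.04 (limma unadjusted p = 0.00723, adjusted p = 0.629). Of these marker means, that of the natural killer and cytotoxic list did not overlap between groups. The macrophage and granulocyte markers Lyz2, Adgre1 and S100a9 were higher in knockout without overlap, or 30% of that list against 5.49% of all genes. In that list 7 were higher and 3 lower. S100a9 differed by 0.27 (limma unadjusted p = 0.0435, adjusted p = 0.638). In the B lineage list 6 were higher and 1 lower. Blnk differed by 1.07 with overlapping groups (limma unadjusted p = 0.0396, adjusted p = 0.634). The part of other cell types in the results was not tested. In bulk RNA, fewer cells of a type and less RNA per cell cannot be told apart.

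Proteasome genes gave strong signals in both kinds of leukemia, 30 of them with a mean above 9, and no subunit passed the test between the groups. Of the 43 genes, 42 were above the filter on low signal, and 0 of these had a limma adjusted p under 0.05, where 0.00% of all 12565 genes tested did; at an unadjusted p under 0.05 there were 0 proteasome genes against 7.82% of all genes. The lowest adjusted p was 0.651, for Psmb4. Differences ran from -0.17 to 0.37, and 40 of the 42 were smaller than 0.25 either way, a change of 1.19-fold, where 62.7% of all genes were. The 95% interval of the difference stayed within 0.5 either way, or 1.41-fold, for 29 of the 42 (69%), against 20.9% of all genes. Among genes with a mean above 9 the contrast was smaller: all 30 proteasome genes of that signal differed by less than 0.25 against 77.7% of the 1855 genes, and the interval stayed within 0.5 for 25 of the 30 (83.3%) against 52.6%. Over the 42 genes the intervals reached from -0.67 to 0.79.

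**Figure D1:**
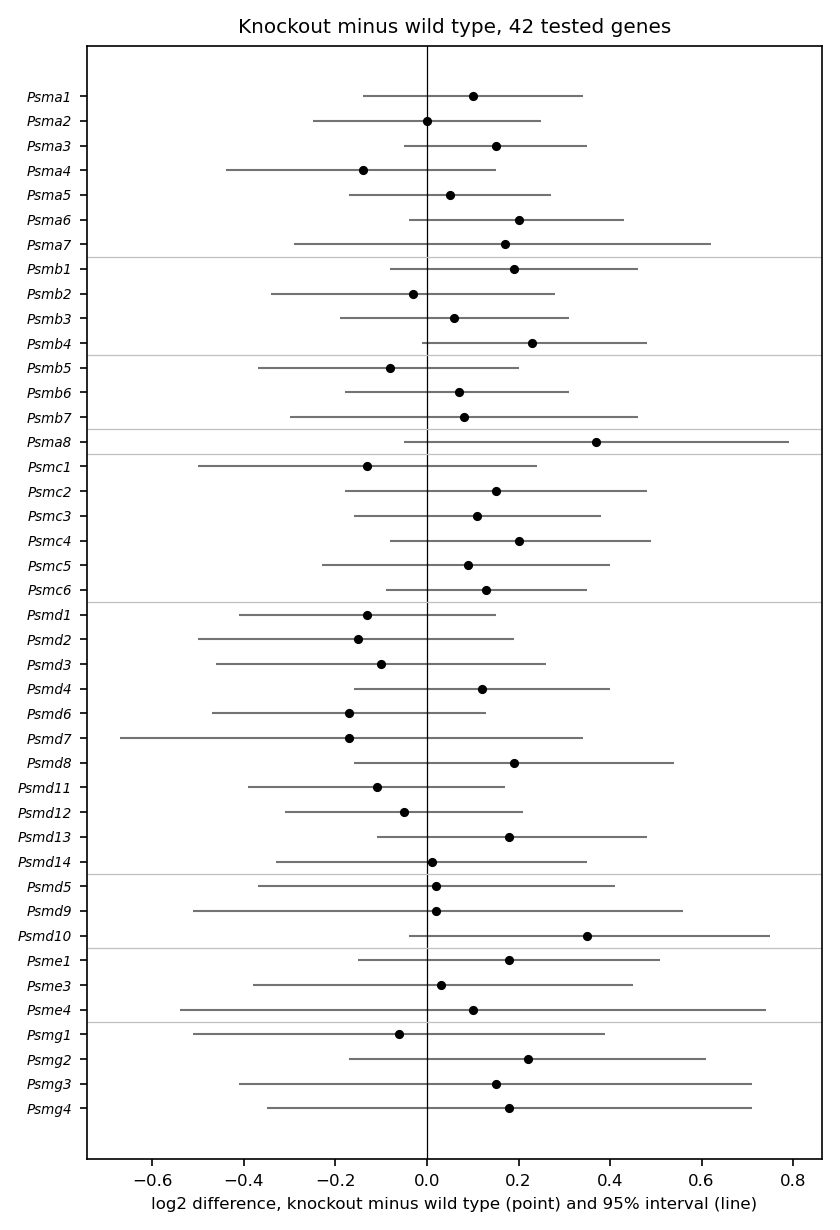
Each point is the log2 difference, knockout minus wild type, of a tested proteasome gene, with its 95% interval from limma as a line and grey lines between classes of subunit. All 42 intervals include 0, and the widest are those of Psme4, Psmg3, Psmd9, Psmg4 and Psmd7.

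Most differences were small and positive. Of the 42 genes 29 were higher in knockout, 12 were lower and 1 was equal, which is 69% higher against 48.1% of all genes tested. Their median difference was 0.08, beside -0.01 over all genes and -0.01 over the 1855 genes with a mean above 9. Groups did not overlap for 4 proteasome genes, all with higher knockout values (Psma3, Psmb4, Psmc6 and Psmd10), or 9.52% against 5.49% of all genes. For 0 proteasome genes did every knockout value lie below every wild-type value, against 8.29% of all genes. Leaving out 1 array at a time gave between 24 and 30 genes higher and a median between 0.05 and 0.13. Of all genes, 46.8% to 48.4% were then higher.

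The alpha ring of the core kept nearly the same signal on all arrays. Psma1 to Psma7 had a mean signal of 11.51, 11.41 and 11.47 on wild-type arrays 1 to 3 and of 11.64, 11.41 and 11.55 on knockout arrays 1 to 3, so the groups overlapped. Of these 7 gate subunits 5 were higher in knockout, 1 was lower and 1 was equal, and 0 passed the test.

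Psma6 had the largest difference among them: it read 12.42, 12.27 and 12.24 in wild type and 12.62, 12.35 and 12.55 in knockout, a difference of 0.20 (standard error 0.103, adjusted p = 0.67 by limma). Knockout array 2 fell inside the wild-type range. Psma3 read 11.85, 11.82 and 11.93 in wild type and 12.01, 11.98 and 12.06 in knockout, 11.87 ± 0.06 against 12.02 ± 0.04. Its groups did not overlap, but the difference of 0.15 had an adjusted p of 0.686 by limma, with an interval from -0.05 to 0.35.

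Psma1 read 11.07, 10.94 and 11.02 in wild type and 11.21, 11.01 and 11.11 in knockout, a difference of 0.10 with overlapping groups. Psma2 had the same mean in both groups, 11.94, with knockout arrays 1 and 2 at the top and bottom of its range at 12.11 and 11.77. Psma5 moved over 0.16 across all 6 arrays. Psma4 was the 1 alpha subunit with a lower knockout mean, -0.14 with an interval from -0.44 to 0.15.

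The beta ring behaved much the same. Of the subunits without a catalytic site, Psmb4 had the smallest unadjusted p of all proteasome genes, 0.0604: it read 11.47, 11.75 and 11.48 in wild type and 11.76, 11.84 and 11.80 in knockout. The groups did not overlap, although wild-type array 2 came within 0.01 of knockout array 1, and the difference of 0.23 had an interval from -0.01 to 0.48 (limma adjusted p = 0.651). A second probe set of Psmb4 gave 0.12 with overlapping groups. Psmb1 read 11.18, 11 and 11.07 in wild type and 11.46, 11.20 and 11.15 in knockout, a difference of 0.19 that was 0.09 without knockout array 1. Psmb2 and Psmb3 differed by -0.03 and 0.06. Psmb2 turned positive when each array was centred on its median over the tested genes with a mean above 5.

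The 3 catalytic subunits had the lowest median residual SD of the classes, 0.0929. Psmb5, whose product has the chymotrypsin-like site that bortezomib binds, read 10.96, 10.68 and 10.96 in wild type and 10.91, 10.66 and 10.78 in knockout, a difference of -0.08 with an interval from -0.37 to 0.20; without single arrays it lay between -0.18 (without wild-type array 2) and -0.02 (without knockout array 2). Psmb6, with the caspase-like site, read 10.91, 10.73 and 10.72 against 10.92, 10.77 and 10.87, a difference of 0.07 (interval -0.18 to 0.31). Psmb7, with the trypsin-like site, read 7.50, 7.42 and 7.28 against 7.43, 7.46 and 7.55, a difference of 0.08 (interval -0.30 to 0.46). Groups overlapped for all 3, and each interval stayed within 0.5 either way.

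**Figure D2:**
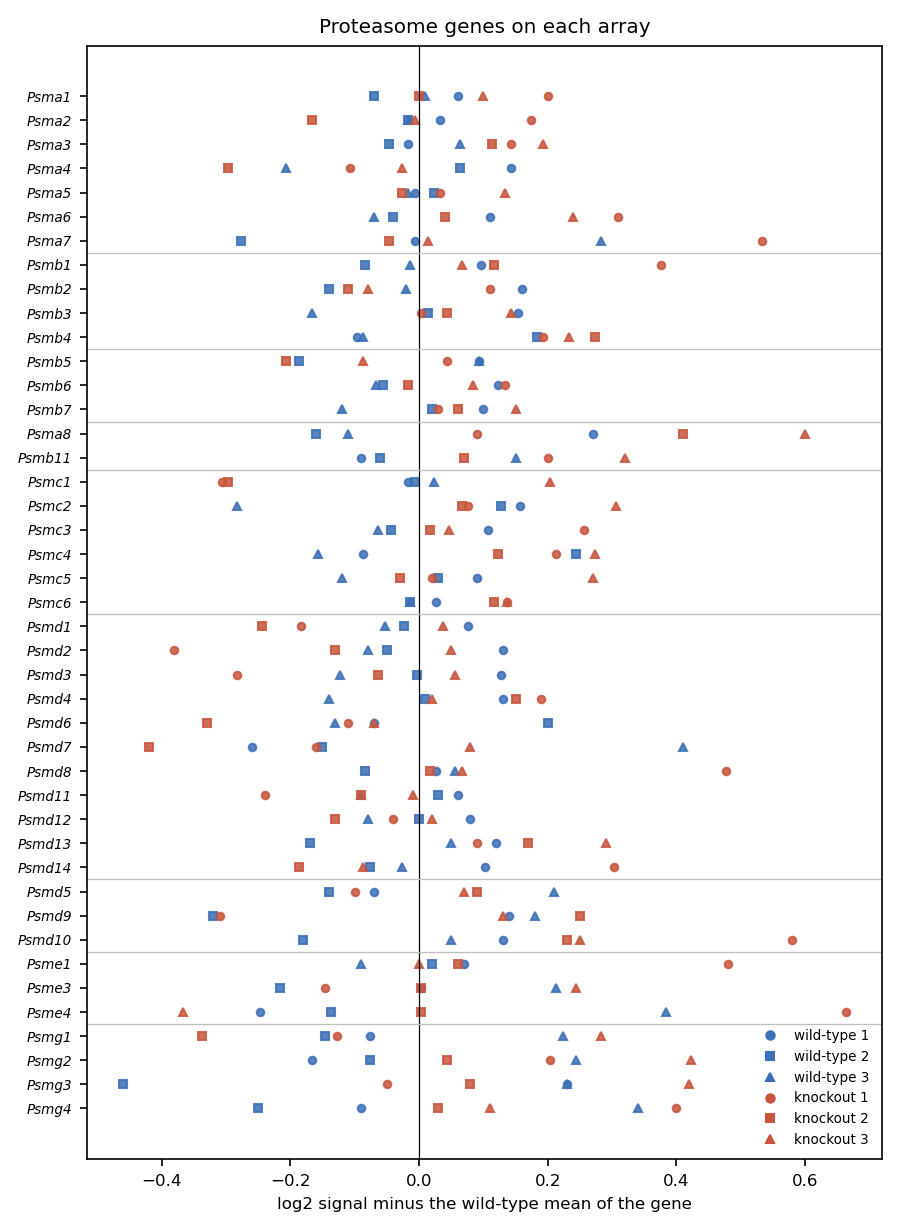
Every point is the log2 signal of a proteasome gene on 1 array minus the wild-type mean of that gene, in blue for wild type and red for knockout, with the marker giving the replicate. Points of both groups are mixed for most genes; knockout array 1 lies far to the right for Psma7, Psmd8, Psmd10, Psme1 and Psme4 and far to the left for Psmd2.

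A pair of core genes is known from single tissues. Psmb11 encodes the catalytic subunit of the thymoproteasome, made in the cortical epithelium of the thymus, where it takes the place of Psmb5 and shapes the peptides on which CD8 T cells are selected. Its probe set lay at the bottom of the scale on every array, at 1.64, 1.67 and 1.88 in wild type and 1.93, 1.80 and 2.05 in knockout, and it was not above the filter, 2.04. The mean of 7 markers of that epithelium was 2.89 to 3.02 in wild type and 2.95 to 3.25 in knockout. Of the 7, 4 stayed below 3 on all arrays, among them the transcription factor Foxn1. Ly75 read 5.16, 5.28 and 5.37 in wild type and 6.12, 5.59 and 5.54 in knockout. It was the 1 of 5 tested markers higher without overlap, or 20% against 5.49% of all genes. Ccl25 lay between 3.84 and 4.54 and Krt5 between 3.58 and 4.12, with overlapping groups. Of the 5 tested, 4 were higher in knockout and 1 lower. Psma8, an alpha subunit of male germ cells, read 2.25, 1.82 and 1.87 in wild type and 2.07, 2.39 and 2.58 in knockout, and its nominal difference of 0.37, the largest of all proteasome genes, was measured close to the filter.

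Psmb5 and Psmb11 are neighbours on chromosome 14 (GRCm38.p6, RefSeq), with Psmb5 at 54614120 to 54617995 on the minus strand and Psmb11 at 54625310 to 54629556 on the plus strand. They point away from each other across 7314 bases. The 160 bases before each start, on the strand of the gene, are printed because they are the outward-facing starts of the constitutive subunit and of the thymic one that takes its place. Capitals mark TGACNNNGC, the core of the antioxidant response element bound by NRF1 and NRF2 with small MAF proteins, and CCAAT, the box bound by NF-Y.
Psmb5, chr14:54617996-54618155: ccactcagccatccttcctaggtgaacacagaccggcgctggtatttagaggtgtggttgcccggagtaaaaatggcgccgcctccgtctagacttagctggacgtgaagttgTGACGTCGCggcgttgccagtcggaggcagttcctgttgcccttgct
Psmb11, chr14:54625150-54625309: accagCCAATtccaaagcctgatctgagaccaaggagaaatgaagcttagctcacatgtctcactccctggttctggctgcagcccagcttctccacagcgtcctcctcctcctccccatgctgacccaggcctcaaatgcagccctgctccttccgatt
The Psmb5 stretch holds the first of these motifs, beginning at -47 counted from the start, and the Psmb11 stretch holds the CCAAT box, beginning at -155.

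In the cap, most ATPase genes had a higher mean in knockout and most non-ATPase genes a lower one. The mean signal of each class overlapped between the groups. The 6 ATPase genes had a mean signal of 10.66, 10.68 and 10.52 on the wild-type and 10.69, 10.62 and 10.82 on the knockout arrays. Of them 5 were higher and 1 lower, with a median difference of 0.12, and 0 passed the test. The 11 non-ATPase genes had means of 9.94, 9.86 and 9.87 in wild type and 9.86, 9.77 and 9.93 in knockout; 4 were higher and 7 lower, with a median of -0.10, and again 0 passed.

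Psmc6 showed the least scatter of all members, with a residual SD of 0.0183. It read 10.78, 10.74 and 10.74 in wild type and 10.89, 10.87 and 10.89 in knockout, so the groups stood apart by 0.13 without overlap. Because limma draws such small variances toward those of genes of like signal, the standard error was 0.0942 and the adjusted p 0.733. Of its other probe sets, 1 differed by 0.20 and 1, of low signal, by -0.03, and both had overlapping groups.

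Psmc4 read 11.47, 11.80 and 11.40 in wild type and 11.77, 11.68 and 11.83 in knockout, with wild-type array 2 among the knockout values; its second probe set gave -0.01 in place of 0.20, and leaving out wild-type array 2 gave 0.33. Psmc2 read 11.60, 11.57 and 11.16 against 11.52, 11.51 and 11.75, where wild-type array 3 was the low one. Psmc1 was the 1 ATPase with a lower mean in knockout, at 9.58 and 9.59 on knockout arrays 1 and 2 but 10.09 on knockout array 3, against 9.87 to 9.91 in wild type.

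Among the non-ATPase subunits, Psmd13 had the smallest p: 10.01, 9.72 and 9.94 in wild type and 9.98, 10.06 and 10.18 in knockout, a difference of 0.18 (standard error 0.128, adjusted p = 0.724 by limma). The difference was 0.10 without wild-type array 2, and a second strong probe set gave 0.20. Psmd4, the ubiquitin receptor also called RPN10, differed by 0.12, and Psmd14, the deubiquitinase that removes chains at the cap, by 0.01 with an interval from -0.33 to 0.35.

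The scaffold subunits Psmd1 and Psmd2 lay on the other side, as did Psmd3, Psmd7 and Psmd11. Psmd2, on which ubiquitin receptors and shuttle factors dock, read 9.75, 9.57 and 9.54 in wild type and 9.24, 9.49 and 9.67 in knockout, a difference of -0.15 that knockout array 1 led. Psmd1 and Psmd3 differed by -0.13 and -0.10. Psmd11, a subunit linked to high proteasome assembly in stem cells, read 9.96, 9.93 and 9.81 against 9.66, 9.81 and 9.89, a difference of -0.11; 2 further probe sets of strong signal gave -0.17, without overlap, and 0.07. Psmd7 had the widest range of the cap genes, 8.49, 8.60 and 9.16 in wild type and 8.59, 8.33 and 8.83 in knockout, and its difference of -0.17 turned to 0.04 without wild-type array 3.

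**Figure D3:**
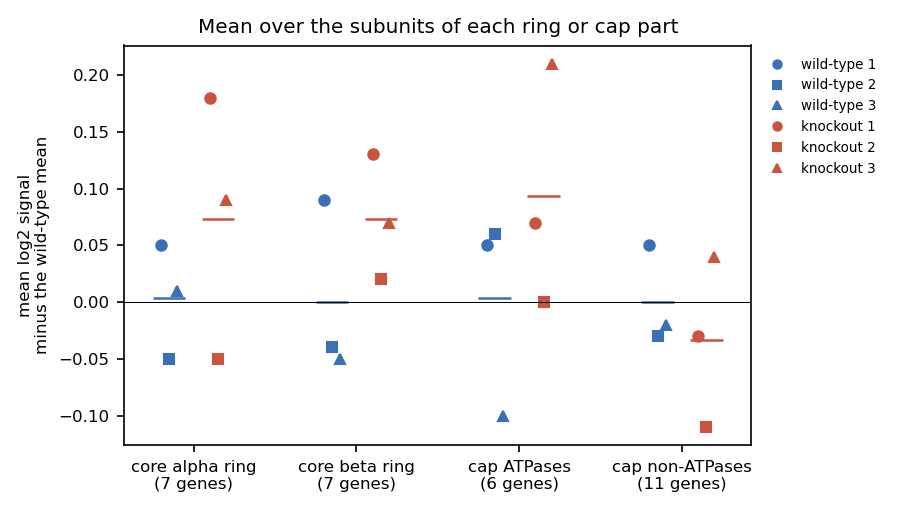
Points are the mean log2 signal over the alpha ring, the beta ring, the cap ATPases and the cap non-ATPases on each array, minus the mean of the wild-type arrays, and the short bars are group means. Knockout array 1 is highest for both core rings at 0.18 and 0.13, knockout array 3 for the ATPases at 0.21, and knockout array 2 lowest for the non-ATPases at -0.11; the groups overlap in every column.

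Over the whole complex, the difference of the core mean was about as large as its pooled SD between arrays, 0.0739, and that of the cap mean was well below its own, 0.0701. The mean of the 14 constitutive core genes was 10.95 ± 0.06 in wild type and 11.03 ± 0.09 in knockout, a difference of 0.07, and that of the 17 cap genes was 10.15 ± 0.05 and 10.16 ± 0.09, a difference of 0.01 (SD, n = 3). Core minus cap was 0.83, 0.76 and 0.83 on the wild-type arrays and 0.96, 0.87 and 0.79 on the knockout arrays. Knockout arrays 1 and 2 were above all wild-type arrays and knockout array 3 was inside their range. No test was made of these means, since the genes were chosen with results of these data known. Without knockout array 1 the core difference was 0.03, and the cap difference lay between -0.04 and 0.05 when single arrays were left out.

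The arrays differed in which of them stood at the ends. Knockout array 1 gave the highest value for 14 of the 42 genes and knockout array 3 for 13, while wild-type array 2 gave the lowest for 14. Over all genes tested these 3 arrays held those places for 18.5%, 20.3% and 12.1% of genes. In the core, knockout array 1 exceeded the wild-type mean in 13 of 14 genes and knockout array 2 in 6 of 14. In the cap, knockout array 3 exceeded it in 14 of 17 genes, and wild-type array 1 in 13 of 17.

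The chaperones of the cap included the largest difference among strongly read genes. Psmd10, or gankyrin, which binds an ATPase during assembly and is overproduced in liver cancer, read 8.23, 7.92 and 8.15 in wild type and 8.68, 8.33 and 8.35 in knockout, 8.10 ± 0.16 against 8.45 ± 0.20. The groups did not overlap, and the difference of 0.35 had a standard error of 0.171 and an adjusted p of 0.664 by limma. It lay between 0.24 and 0.42 when single arrays were left out. Psmd5 and Psmd9, which are also chaperones of the ATPase ring, both differed by 0.02. Psmd9 read 7.43, 6.97 and 7.47 against 6.98, 7.54 and 7.42, with 1 low array in each group.

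The core chaperones varied more between arrays than the subunits they assemble. Psmg2 read 8.72, 8.81 and 9.13 in wild type and 9.09, 8.93 and 9.31 in knockout, a difference of 0.22 (interval -0.17 to 0.61) that was 0.34 without wild-type array 3 and 0.12 without knockout array 3. Psmg3 had the widest range of the chaperones, 7.69, 7.0 and 7.69 against 7.41, 7.54 and 7.88. Psmg1 and Psmg4 differed by -0.06 and 0.18, and Psmg1 turned positive with centred arrays. The median residual SD of these 4 genes was 0.259, against 0.121 for the 14 core genes and 0.151 for the 17 cap genes. Over all genes tested with a mean above 5 it was 0.247, close to that of the chaperones.

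Activators other than the cap did not pass either. Psme1, a subunit of the interferon-inducible PA28 ring, read 11.05, 11 and 10.89 in wild type and 11.46, 11.04 and 10.98 in knockout, a difference of 0.18 that rested on knockout array 1. Psme3, the nuclear PA28 gamma, read 8.24, 8.02 and 8.45 against 8.09, 8.24 and 8.48, a difference of 0.03.

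Psme4, which encodes the large activator PA200, had the widest range of all members, 1.03, and the split did not follow the groups. It read 9.17, 9.28 and 9.80 in wild type and 10.08, 9.42 and 9.05 in knockout. A second probe set read 8.10, 7.98 and 8.85 against 9.40, 8.52 and 8.22, and the third 5.75, 5.72 and 7.04 against 7.19, 5.71 and 5.56. On each of the 3 probe sets wild-type array 3 and knockout array 1 were the highest. Psma7 had a like profile, at 10.51, 10.24 and 10.80 in wild type and 11.05, 10.47 and 10.53 in knockout, and its second probe set was again highest on knockout array 1 and wild-type array 3. The same arrays had the smallest gap between the 3' and 5' control probe sets of Gapdh, 0.74 on wild-type array 3 and 0.84 on knockout array 1 against 1.18 to 1.34 on the other four. For beta-actin they had 1.26 and 1.27 against 1.36 to 1.75. For 18S ribosomal RNA these arrays did not stand apart: the gap was -2.31 and -1.86, and on the other four it ran from -2.28 to -1.57. The part of RNA quality in the Psme4 and Psma7 profiles was not tested.

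**Figure D4:**
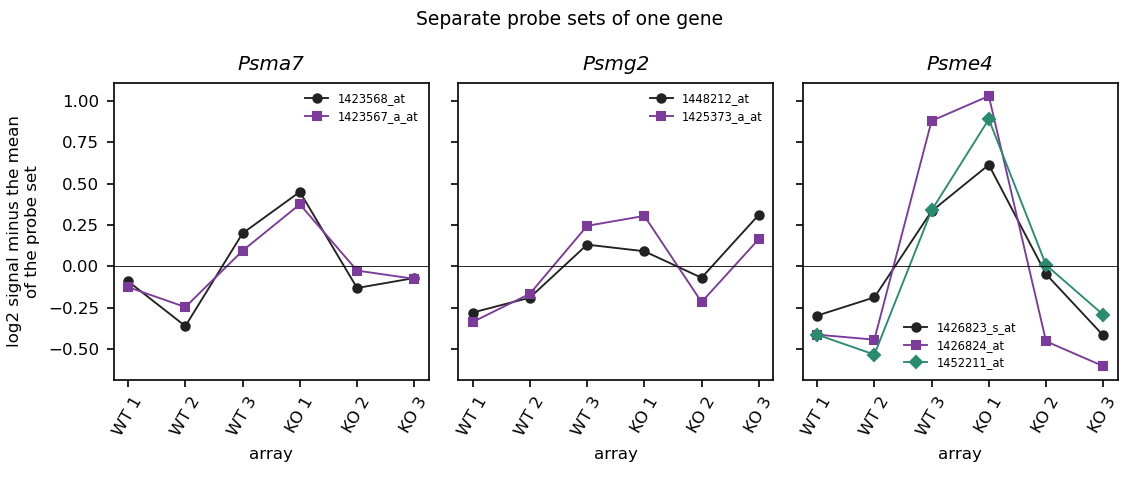
Lines join the log2 signal of each probe set with a mean above 5 across the 6 arrays, minus its own mean, for Psma7, Psmg2 and Psme4 (WT, wild type; KO, knockout). All Psme4 and Psma7 probe sets drawn are highest on wild-type array 3 and knockout array 1; both Psmg2 probe sets are lowest on wild-type array 1 but are highest on knockout array 3 in one case and knockout array 1 in the other.

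Several probe sets of a gene showed whether the direction depended on the probe set chosen. They read the same RNA on the same arrays, so they give no separate check of the groups. Of 24 genes with more than 1 probe set, 14 had several with a mean above 5, and the sign of the difference disagreed in 4 of these 14 (Psmc4, Psmc6, Psmd11 and Psme4). Of the 17 less intense probe sets with a mean above 5, 12 had positive and 5 negative differences. Probe sets near the bottom of the scale disagreed more widely, as for Psme3, where they gave -0.68 and 0.54 beside 0.03 for the strong one.

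The spread within groups was small for genes of this signal. The median residual SD of the 42 genes was 0.15, beside 0.254 for all genes tested. For the 30 proteasome genes with a mean above 9 it was 0.131, beside 0.18 for all 1855 such genes. The median range over the 6 arrays of those 30 was 0.37, beside 0.51, and 1 of the 42 genes, Psme4, ranged over more than 1 unit. The median size of the difference between groups was 0.13 for the 30 genes and 0.13 for all genes of that signal, so the proteasome genes did not stand apart on that measure.

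**Figure D5:**
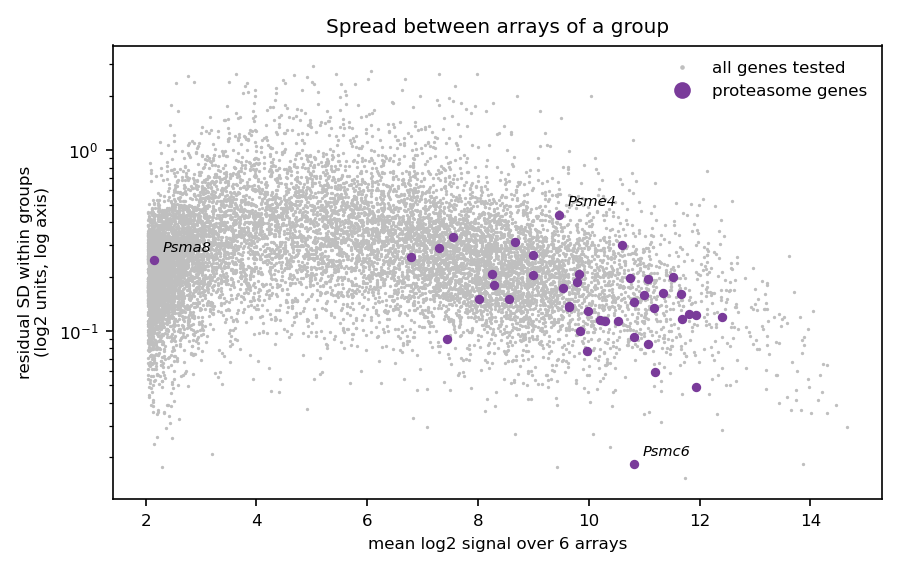
Each point is a gene, placed by its mean log2 signal over the 6 arrays and the SD that remains within groups (log axis), with proteasome genes in purple over all 12565 genes tested in grey. Purple points run from 0.0183 for Psmc6 to 0.439 for Psme4, and most lie in the lower part of the cloud.

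The genes lie on 16 chromosomes, with at most 8 on 1 of them, chromosome 11. Promoters were compared through RefSeq windows of 300 bases, 250 before and 50 after each start (GRCm38.p6), which 35 of the 43 genes matched with 37 windows. On both strands, CCGGAAG, the core recognised by ETS family transcription factors, occurred in 40.5% of these windows, beside 8.86% of all 32851 windows, 16.4% of the windows of other genes tested here and 21.5% of those of other genes with a mean above 9. It was found in 9 of 14 matched cap genes, 1 of 11 matched core genes and 4 of 9 matched activator and chaperone genes. The next sequences are the 60 bases before the start of 5 of those 9 cap genes, shown because these genes have a single window and the whole motif, in capitals and in either orientation, falls within that stretch.
Psmc1, chr12:100110142-100110201, plus strand: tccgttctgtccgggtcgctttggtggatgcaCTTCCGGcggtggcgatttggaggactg
Psmd2, chr16:20651592-20651651, plus strand: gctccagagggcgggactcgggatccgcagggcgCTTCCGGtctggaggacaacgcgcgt
Psmd6, chr14:14120946-14121005, minus strand: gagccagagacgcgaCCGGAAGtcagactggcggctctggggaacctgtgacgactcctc
Psmd11, chr11:80428555-80428614, plus strand: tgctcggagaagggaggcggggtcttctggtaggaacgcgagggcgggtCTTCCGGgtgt
Psmd12, chr11:107479468-107479527, plus strand: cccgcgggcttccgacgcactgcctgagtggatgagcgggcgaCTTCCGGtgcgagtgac
Each of these genes except Psmc1 encodes a non-ATPase subunit. All 5 had a lower mean in knockout, with differences from -0.17 to -0.05, while the other 4 cap genes with the motif, Psmc2, Psmc6, Psmd4 and Psmd13, had higher means, with differences from 0.12 to 0.18; 0 of the 9 passed the test. Over all 17 cap genes 9 were higher and 8 lower. Whether the motif or its place goes with a direction was not tested. A match is a description of these letters and not a binding site.

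The shares of the remaining motifs lay closer to those of all windows. TGACNNNGC was found in 16.2% of member windows and 12.4% of all windows, in Psmb5, Psmb6, Psmc6, Psmd9, Psmd12 and Psme4. CCAAT was found in 35.1% against 37.4%, and CACGTG, the E-box of MYC and MAX, in 8.11% against 7.15%. By part, CCAAT was in 6 of 11 matched core genes, 4 of 14 cap genes and 2 of 9 activator and chaperone genes. In the windows of other genes tested, the shares were 14.2% for TGACNNNGC, 37.8% for CCAAT and 9.57% for CACGTG. In those of other genes with a mean above 9 they were 16.1%, 38.1% and 11.6%. No match of one motif overlapped a match of another.

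Partners of the proteasome were measured on the same arrays. All 3 immunoproteasome genes, whose catalytic subunits replace the constitutive ones in lymphocytes and under interferon, were higher in knockout without passing the test. Psmb8 read 11.41, 11.24 and 11.09 in wild type and 11.64, 11.18 and 11.06 in knockout, a difference of 0.05. Psmb9 read 9.76, 9.56 and 9.02 against 10.09, 9.54 and 9.72, a difference of 0.34 with an interval from -0.17 to 0.85. Psmb10 read 9.98, 9.69 and 9.62 against 10.22, 9.65 and 9.91, a difference of 0.16. Knockout array 1 was the highest for each of the 3 genes.

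Of 6 measured partners and assembly factors 4 were higher and 2 lower, and 0 passed. Sem1, a small cap subunit, read 12.25, 12.34 and 12.20 in wild type and 12.42, 12.43 and 12.36 in knockout, 0.14 higher without overlap. Txnl1, a thioredoxin bound to the cap, read 10.93, 10.91 and 10.89 against 10.93, 11.21 and 11.44, a difference of 0.28 that knockout arrays 2 and 3 carried. Akirin2, which carries proteasomes into the nucleus, differed by 0.17, and Ecpas, a scaffold that holds core and cap together, by -0.33.

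The deubiquitinases and the ligase that act on the bound substrate were lower in all 3 cases, again with 0 past the test. Usp14, which trims ubiquitin chains at the cap, read 8.24, 8.30 and 8.44 in wild type and 7.88, 7.73 and 8.26 in knockout, a difference of -0.37 (interval -0.79 to 0.05). Ube3c, which extends them, differed by -0.42 and Uchl5 by -0.03.

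In the NRF1 and NRF2 group 2 of 6 genes were higher and 4 lower, and 0 passed. Nfe2l1, the gene of NRF1, read 5.68, 5.61 and 5.87 in wild type and 5.39, 5.24 and 5.27 in knockout, a difference of -0.42 without overlap (standard error 0.229, limma adjusted p = 0.681). Ngly1, which processes NRF1, differed by -0.29, Mafg, a small MAF partner, by -0.30, and Nfe2l2, the gene of NRF2, by 0.12.

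Substrate delivery held the 1 gene of these lists with an unadjusted p under 0.05. Vcp, the ATPase p97 that pulls ubiquitinated proteins from membranes and complexes, read 11.11, 11.06 and 10.88 in wild type and 10.60, 10.47 and 10.60 in knockout. Every knockout value lay below every wild-type value, and the difference of -0.46 had a standard error of 0.11, an unadjusted p of 0.00306 and an adjusted p of 0.629 by limma. Its cofactor Ufd1 differed by 0.24, and Nploc4, its other cofactor, chosen after its values were seen, by -0.29. The shuttle factors Ubqln2 and Ubqln1 differed by 0.32, without overlap, and -0.11. In all, 4 of 9 genes of this list were higher and 5 lower, and 0 passed. Uba6, an enzyme that activates ubiquitin, was the 1 gene measured of its list, at -0.31.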

How the data were processed

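Biotin-labelled RNA, amplified from 10 ng with a whole-transcriptome kit per the labels' protocols, was measured on 6 one-colour arrays. The authors deposited log2 values for 45101 probe sets per array; GCRMA is named per the submitters' processing notes, and the sources used here do not give its settings. Base 2 follows from the span of the values, whose array medians were 2.26 to 2.36. The values were used as deposited, and depth is limited by the number of arrays. Amplification of small inputs can distort differences between transcripts.

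Of the probe sets 34958 had 1 gene symbol, 932 several and 9211 none. Symbols were updated through gene identifiers to a RefSeq table of GRCm38.p6, which 34754 matched. Each gene took its probe set with the highest mean, and a gene was tested when this mean exceeded the 40th percentile of probe set means, 2.04; the 12565 such genes were fitted with limma 3.58.1 in R 4.3.3 (lmFit, eBayes with an intensity trend, two-sided, Benjamini-Hochberg over all genes, threshold 0.05). Standard errors and 95% intervals are the moderated ones of single genes; the fit was tested on simulated data. Motif counts use the RefSeq promoter table.

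The members and lists were chosen with earlier results of these data known. Per-array values are given for the 10 members with the smallest p, the catalytic genes, Psmb11, the member with the widest range in each class and members whose probe sets differ in sign. Psmc1 and Psme1 were added after their values were seen. Of other lists, the immunoproteasome genes and up to 4 by smallest p are named, some with per-array values. Alternatives concerned the filter, a constant prior variance, quantile or median scaling, weighting of arrays, blocking on replicate number, leaving out each array, averaging wild-type arrays 1 and 2, averaging or separating probe sets, the threshold, and which genes count as core and cap. Median scaling centred each array on its median over the tested genes with a mean above 5.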

Additional observations from a re-analysis of the deposited data

How the results depend on the processing

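No proteasome gene passed an adjusted p of 0.05 under any alternative run. In the run on separate probe sets only that threshold was counted. In all other runs no proteasome gene passed 0.10 either, and the lowest limma adjusted p was 0.432, with array weights. Over all genes, the count past the threshold was 0 in most alternatives, 1 with array weights, between 0 and 51 without single arrays (51 without wild-type array 3, 3 without knockout array 1 and 1 without knockout array 3), and 982 at an unadjusted p under 0.05. At that unadjusted threshold, centring on the median of genes with a mean above 5 gave 3 of 42 proteasome genes (Psma8, Psmd10 and Psmb4). Of all 12565 genes it gave 970. Leaving out single arrays gave at most 2 proteasome genes, beside 430 to 1230 of all genes. The count of proteasome genes higher in knockout was 32 with this centring, where 56.5% of all genes were higher. It was 26 with the mean over probe sets, where 44.4% of all genes were. The core difference ranged from 0.03 to 0.12 and the cap difference from -0.04 to 0.05 without single arrays; with array weights they were 0.04 and -0.03.

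For 23 genes followed singly, 327 of 344 values kept their direction, and 0 passed the threshold. With the mean over probe sets the direction turned for Psma1 (-0.13), Psma3 (-0.05), Psmd7 (0.08), Psme3 (-0.04) and Psmg3 (-0.07). With wild-type arrays 1 and 2 averaged it turned for Psmd9 (-0.02) and Psme3 (-0.02). Without single arrays the differences of Psma7 ranged from -0.02 to 0.31, Psmd7 from -0.30 to 0.04, Psmd9 from -0.14 to 0.19, Psme3 from -0.07 to 0.14, Psme4 from -0.18 to 0.33 and Psmg3 from -0.08 to 0.27. Directions held without single arrays but sizes moved by over 1.5 times for others, such as Psmc2 (0.01 to 0.23), Psmd2 (-0.25 to -0.04), Psmd13 (0.10 to 0.24) and Psmg2 (0.12 to 0.34). Of the other members, Psma2, Psmb2, Psmd12 and Psmg1 changed sign with the centring, all with main differences of at most 0.06 in size. With the replicate block, 901 genes had an unadjusted p under 0.05, 0 genes passed the threshold and 29 proteasome genes were higher; same-numbered arrays of the groups had correlations of deviations between -0.0507 and -0.0384, so the numbers were not taken to pair them. The deposited values are logarithms, so no pseudocount was varied.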
